A study of Homo sapiens with 6 samples.

Results

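The neutrophil-attracting CXCL chemokines and CCL20 were followed through RNA-seq of the ovarian cancer cell line SKOV3 (SK-OV-3) after editing of its STING1 genotype. The genes are CXCL1, CXCL2, CXCL3, CXCL5, CXCL6, CXCL8 and CCL20, 7 of the 60498 genes in the table. They were chosen by their symbols with their levels in the control libraries and their response to cGAMP already known. Those values are therefore given as a description, and no test of them is read. Of the 7, 6 had a mean of at least 10 counts over the 6 libraries and were among the 15126 genes analysed. CXCL6 had between 0 and 1 count in each library and was not analysed further.

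The parent cells carry a WT and a HAQ allele of STING1 (WT/HAQ), and dual-guide CRISPR editing with puromycin selection and limiting dilution gave the lines WT/- and HAQ/-, which keep only the WT or only the HAQ allele. HAQ is a common haplotype of STING1 with 3 changed amino acids. Each edited line is a single clone, so the allele it lost and any other property of that clone cannot be told apart. In each of the 3 lines, 1 library was made from control cells and 1 from cells given 10 μg/mL of 2′3′-cGAMP, the ligand of STING1, for 30 min in a digitonin buffer that opens the membrane and then rested for 4 h in fresh medium. The sources used here do not say whether control cells went through the buffer and the change of medium. Thus no condition had a replicate, and every interval given is a 95% interval for counting error only. For a ratio it is a Wilson interval, for a level a Poisson score interval and for a difference of log2 folds a normal approximation. The libraries held 12444791 to 17608427 estimated counts. STING1 itself was at 669 normalized counts in the WT/HAQ control, 353 in the WT/- control and 213 in the HAQ/- control, and at 1780, 553 and 403 in the cGAMP libraries of the same lines. Markers fixed for ovarian epithelial cancer cells were present, with all 9 analysed, although WT1 had 2 to 25 counts and MUC16 1 to 72. Of 14 leukocyte markers, 1 was analysed, the lysosomal protein CD68, which many cells express and which gave most of that list's 444 to 747 counts per library. S100A12, CXCR1 and MS4A1 were at 0 in every library and the pan-leukocyte gene PTPRC had 0 to 3 counts. Of 4 fibroblast markers, 3 were analysed, with a list sum of 1129 to 1854 counts per library, most of it COL1A1 and COL1A2. COL3A1 had 51 counts in the WT/HAQ cGAMP library, 41 in the HAQ/- cGAMP library and 0 or 1 elsewhere. Of 3 endothelial markers, 1 was analysed, with a list sum of 11 to 42 counts.

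CXCL1, CXCL2, CXCL3, CXCL5, CXCL6 and CXCL8 (interleukin 8) are small secreted proteins with the letters ELR before their CXC cysteines. They draw neutrophils through the receptor CXCR2 and, for some of them, CXCR1. CCL20 acts on another receptor, CCR6, and attracts dendritic cell precursors, B cells and a subset of helper T cells. Epithelial and tumor cells make these transcripts when IL-1, TNF or IL-17 activates the transcription factor NF-κB, which binds κB sites near their start sites, and AU-rich elements in the 3′ part of the messages make them short-lived.

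The CXCL genes lie in 1 cluster on chromosome 4. On GRCh38 (GENCODE release 44) CXCL8 is at 73740519 to 73743716, CXCL6 at 73836640 to 73849064 and CXCL1 at 73869393 to 73871308 on the plus strand. CXCL5 at 73995642 to 73998677, CXCL3 at 74036589 to 74038807 and CXCL2 at 74097040 to 74099196 are on the minus strand. The span from the first to the last is 358678 bp. CCL20 is on the plus strand of chromosome 2, at 227805739 to 227817564. Each of the 7 main transcripts has 4 exons.

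The 150 bases before each start site are shown because the letters of a κB site are what these promoters share. The stretches were taken from the RefSeq promoter table (GRCh38.p14) and run 5′ to 3′ along the gene at chr4:73740419-73740568 (plus strand) for CXCL8, chr4:73869243-73869392 (plus strand) for CXCL1, chr4:74099196-74099345 (minus strand) for CXCL2, chr4:74038690-74038839 (minus strand) for CXCL3, chr4:73998678-73998827 (minus strand) for CXCL5, chr4:73836528-73836677 (plus strand) for CXCL6 and chr2:227813692-227813841 (plus strand) for CCL20. Capitals mark matches to the κB motif GGNNNTTCC on either strand.
CXCL8: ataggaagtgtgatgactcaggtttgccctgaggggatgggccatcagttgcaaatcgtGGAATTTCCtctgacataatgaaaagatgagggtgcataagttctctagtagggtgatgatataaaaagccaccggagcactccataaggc
CXCL1: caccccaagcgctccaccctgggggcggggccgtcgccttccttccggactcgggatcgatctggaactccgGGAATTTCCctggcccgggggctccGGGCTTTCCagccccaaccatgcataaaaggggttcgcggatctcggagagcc
CXCL2: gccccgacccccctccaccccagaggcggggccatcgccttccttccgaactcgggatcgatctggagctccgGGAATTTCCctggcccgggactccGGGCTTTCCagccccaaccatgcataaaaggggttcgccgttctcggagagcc
CXCL3: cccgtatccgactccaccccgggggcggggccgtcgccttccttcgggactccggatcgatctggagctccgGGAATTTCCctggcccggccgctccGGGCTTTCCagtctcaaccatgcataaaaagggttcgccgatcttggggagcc
CXCL5: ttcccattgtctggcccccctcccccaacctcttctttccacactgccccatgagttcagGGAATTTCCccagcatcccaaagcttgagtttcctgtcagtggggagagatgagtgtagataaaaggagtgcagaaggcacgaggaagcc
CXCL6: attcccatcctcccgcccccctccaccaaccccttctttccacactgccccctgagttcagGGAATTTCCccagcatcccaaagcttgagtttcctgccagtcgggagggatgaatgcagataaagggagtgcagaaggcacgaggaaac
CCL20: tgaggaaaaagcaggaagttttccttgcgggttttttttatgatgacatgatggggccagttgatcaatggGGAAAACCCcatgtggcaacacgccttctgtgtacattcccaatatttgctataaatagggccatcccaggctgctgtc

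All 7 promoters matched the κB motif within the window from 250 bases before to 50 bases after the start, against 20.1% of the 27305 promoters in the table. The exact letters GGAATTTCC were found in 6 of 7, all but CCL20, against 0.472% of all promoters. They lay at -91 to -83 from the start in CXCL8, -78 to -70 in CXCL1 and CXCL3, -77 to -69 in CXCL2, -90 to -82 in CXCL5 and -89 to -81 in CXCL6. CXCL1, CXCL2 and CXCL3 each held a second match, GGGCTTTCC, at -53 to -45. In CCL20 the match was on the opposite strand at -79 to -71. The AP-1 motif TGANTCA was found in CXCL8 at -137 to -131 and in no other of the 7, against 7.76% of all promoters. The C/EBP pattern TTNNGNAAT was found in 0 of 7 (11.2% of all promoters). This fixed pattern misses sites with other letters, so it does not show that C/EBP sites are absent. The TATA motif TATAAA was found in CXCL8 and CCL20 (3264 of the 27305). A part of the interferon-stimulated response element, GAAANNGAA, was found in CXCL2 and CXCL3 (8.29%). Each motif was searched on both strands, and the exact κB letters are a case of the wider motif. Among 7 other analysed chemokine ligands with a promoter there, 2 held the exact letters and 2 the wider motif. Among 7 genes with the nearest profiles, described below, 1 held the exact letters and 3 the wider motif. The promoters of CXCL1, CXCL2 and CXCL3 are near copies, as are those of CXCL5 and CXCL6, so the 6 exact matches are not independent. A match is a description of letters and not of a bound factor.

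**Figure D1:**
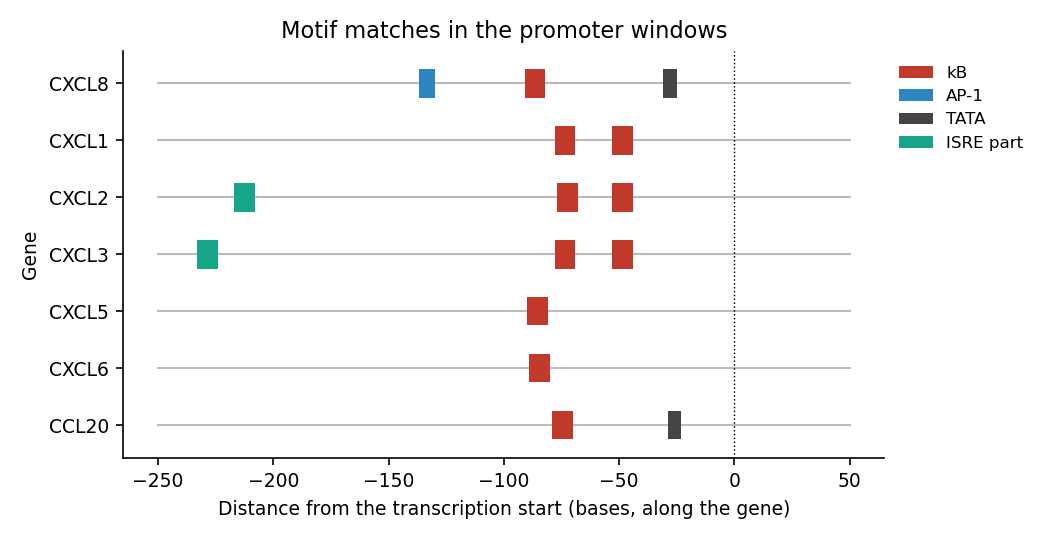
Matches to 4 motifs (coloured blocks, both strands) in the promoter of each of the 7 chemokine genes, plotted by distance in bases from the transcription start (dotted line). The κB matches (red) all lie within 100 bases before the start, and CXCL1, CXCL2 and CXCL3 carry 2 each.

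The coding sequences of CXCL1, CXCL2 and CXCL3 are near copies of each other. CXCL1 and CXCL2 were identical at 93.5% of aligned coding bases, CXCL1 and CXCL3 at 90.7%, and CXCL2 and CXCL3 at 94.4%. CXCL5 and CXCL6 were identical at 87.4%, and every other pair of the 7 at 58.2% or less. The 150 bases before the start followed the same pairs, at 86.1% to 88.1% among CXCL1, CXCL2 and CXCL3 and 89.4% between CXCL5 and CXCL6. Reads that fit more than 1 of these genes can be divided by the counting program, which would make the split among CXCL1, CXCL2 and CXCL3 less certain than their sum. The 42 deposited values of the 7 genes in the 6 libraries were whole numbers, so they show no sign of a fractional division. In each library 92.7% to 93.3% of all values were whole. How shared reads were assigned was not measured. With CXCL1, CXCL2 and CXCL3 summed before the fold, the log2 fold of cGAMP over control was -2.58, -1.38 and -1.20 in WT/HAQ, WT/- and HAQ/-, respectively. The messages also held the AU-rich pentamer ATTTA, counted after the other values had been seen. Its number after the stop codon was 9 in CXCL8, 6 in CXCL1, 10 in CXCL2, 7 in CXCL3, 11 in CXCL5, 6 in CXCL6 and 3 in CCL20. Per kb of that part the lowest of them, CXCL6 at 5.36, compares with a median of 1.81 over the 12631 main transcripts of analysed genes with at least 100 bases there.

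CXCL8 was the most abundant of the 7 in every library. Its level was 20329 normalized counts in the WT/HAQ control and 2331 after cGAMP, 46002 and 17893 in WT/-, and 3138 and 822 in HAQ/-. Scaled by transcript length, that placed it 18th among 14995 genes in the WT/- control, 47th in the WT/HAQ control and 428th in the HAQ/- control. After cGAMP it was 59th, 703rd and 2046th in WT/-, WT/HAQ and HAQ/-. In other words, each cGAMP library was below the control of its own line, and the WT/- line after cGAMP still stood above the untreated HAQ/- line. The 7 genes together took 0.184% of all counts in the WT/HAQ control, 0.433% in the WT/- control and 0.0315% in the HAQ/- control, and CXCL8 made up 54.5% to 71.1% of this sum over the 6 libraries.

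CXCL1, which first became known as a growth factor of melanoma cells, followed at 5154 and 930 normalized counts without and with cGAMP in WT/HAQ, 12533 and 5075 in WT/-, and 1173 and 527 in HAQ/-. CXCL2 was at 1560 and 234 in WT/HAQ, 4593 and 1718 in WT/-, and 216 and 83.2 in HAQ/-. CXCL3 was at 1303 and 181 in WT/HAQ, 4497 and 1540 in WT/-, and 135 and 54.7 in HAQ/-. For each of these paralogs the WT/- control was the highest library and the HAQ/- cGAMP library the lowest. The WT/HAQ cGAMP and HAQ/- control libraries stood close together for CXCL2 (intervals 206 to 265 and 191 to 245). CCL20 had the widest range as a ratio of its highest to its lowest library, at 221 and 18.1 normalized counts in WT/HAQ, 1372 and 381 in WT/-, and 11.3 and 5.47 in HAQ/-. Its HAQ/- values rest on 13 counts in the control and 5 counts after cGAMP.

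CXCL5, a chemokine of epithelial cells that shares the receptor CXCR2, was near the limit of detection. It had 20 counts in the WT/HAQ control and 8 after cGAMP, 23 and 11 in WT/-, and 11 and 14 in HAQ/-. The corresponding levels were 17.7 and 7.60, 21.5 and 14.7, and 9.60 and 15.3 normalized counts, and the intervals of these 6 levels overlap. CXCL6 had 1 count in each of the WT/HAQ control, WT/- cGAMP and HAQ/- cGAMP libraries and 0 counts in the other 3. The upper limits of the 6 intervals were 3.35 to 7.57 normalized counts. No library exceeded the floor of 3 counts set for folds, and no fold was taken.

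**Figure D2:**
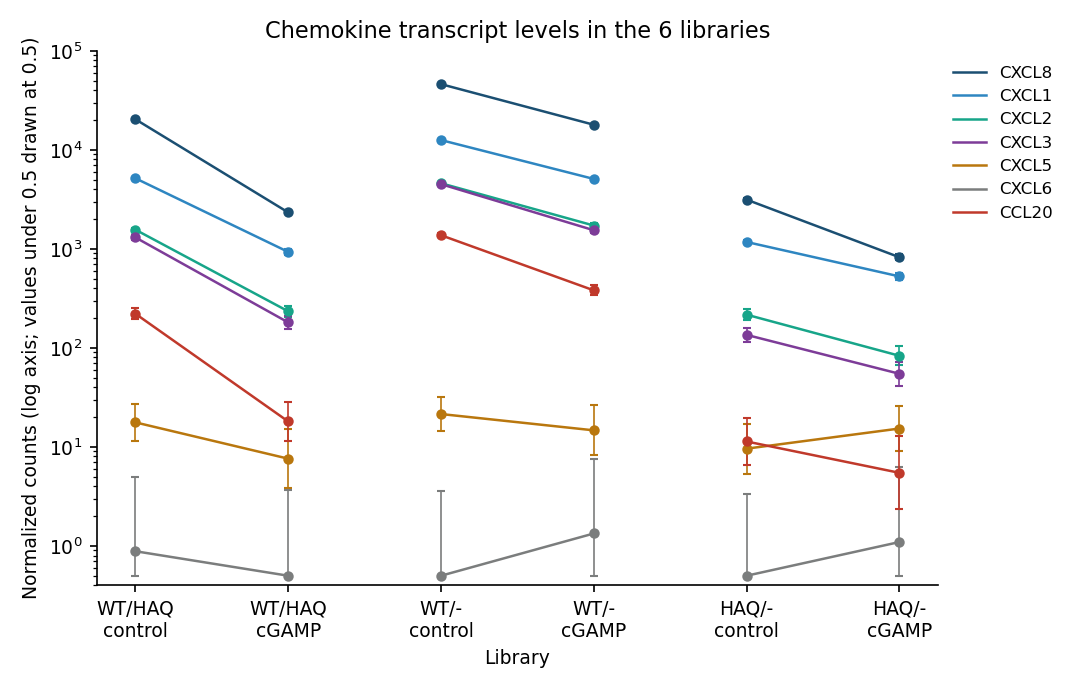
Normalized counts (log axis) of the 7 genes in the 6 libraries, 1 library per point, with 95% counting intervals and a line joining the control and the cGAMP library of each line. CXCL8 is highest in every library, at up to 46002 in the WT/- control, and CXCL6 is at 0 or 1 count throughout.

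The first comparison asks how the cells differed before the ligand was given. The edited line with only the WT allele had the higher levels and the line with only the HAQ allele the lower ones. In the WT/- control, 5 of the 6 analysed genes were at least 1.5-fold above the WT/HAQ control, where 13.0% of all analysed genes were that much higher. CXCL8 was 2.26-fold higher (2.23 to 2.30), CXCL1 2.43-fold (2.36 to 2.51), CXCL2 2.94-fold (2.79 to 3.11), CXCL3 3.45-fold (3.26 to 3.66) and CCL20 6.21-fold (5.43 to 7.10). CXCL5 was at 1.21-fold (0.673 to 2.19), which is within its counting error. All 6 were at least 1.5-fold lower in the HAQ/- control than in the WT/HAQ control, where 8.64% of all analysed genes were that much lower. CXCL8 was 6.48-fold lower (6.25 to 6.71), CXCL1 4.40-fold (4.14 to 4.66), CXCL2 7.21-fold (6.31 to 8.24), CXCL3 9.64-fold (8.17 to 11.4) and CCL20 19.5-fold (11.2 to 33.8). CXCL5, at 1.84-fold lower, again had an interval that includes no difference (0.897 to 3.78). The controls had been used to choose these genes, so nothing is read from either count.

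The 2 comparisons above share the WT/HAQ control library. Set directly against each other, the HAQ/- control was lower than the WT/- control for all 6 genes (15.3% of all analysed genes were at least 1.5-fold lower). The ratio was 14.7-fold (14.2 to 15.2) for CXCL8, 10.7-fold (10.1 to 11.3) for CXCL1, 21.2-fold (18.7 to 24.1) for CXCL2, 33.3-fold (28.3 to 39.0) for CXCL3, 121-fold (70.5 to 207) for CCL20 and 2.24-fold (1.11 to 4.52) for CXCL5. CXCL1 thus differed least and CCL20 most among the 5 genes other than CXCL5. With 1 clone per genotype the spread between clones of a genotype is not known, and none of these ratios was tested.

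After cGAMP the order of the lines was the same for 5 of the 6 genes. Over all analysed genes, 14.6% were at least 1.5-fold higher in WT/- than in WT/HAQ after cGAMP, and 13.3% were that much lower in HAQ/- than in WT/HAQ. The WT/- cGAMP library stood above the WT/HAQ cGAMP library by 7.67-fold for CXCL8 (7.35 to 8.01), 5.45-fold for CXCL1 (5.08 to 5.85), 7.35-fold for CXCL2 (6.41 to 8.42), 8.53-fold for CXCL3 (7.32 to 9.94) and 21.1-fold for CCL20 (13.3 to 33.4). The HAQ/- cGAMP library was below the WT/HAQ cGAMP library by 2.84-fold for CXCL8 (2.61 to 3.08), 1.77-fold for CXCL1 (1.58 to 1.97), 2.81-fold for CXCL2 (2.17 to 3.63), 3.30-fold for CXCL3 (2.42 to 4.50) and 3.30-fold for CCL20 (1.28 to 8.52). For these 5 genes the gap between WT/- and WT/HAQ was wider after cGAMP than before it, and the gap between HAQ/- and WT/HAQ was narrower. CXCL5, with 8 to 14 counts in these libraries, had log2 ratios over WT/HAQ of 0.95 in WT/- (-0.32 to 2.22) and 1.01 in HAQ/- (-0.21 to 2.23), both within counting error of no difference. The ratio of the WT/- cGAMP library to the untreated parent was 0.880 for CXCL8 (0.862 to 0.899), 0.985 for CXCL1 (0.945 to 1.03), 1.10 for CXCL2 (1.02 to 1.18), 1.18 for CXCL3 (1.09 to 1.28) and 1.72 for CCL20 (1.45 to 2.04). Only CCL20 of these differed by 1.5-fold or more. Over all analysed genes 12.7% were that much lower and 17.6% that much higher, so nothing is read from this count.

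**Figure D3:**
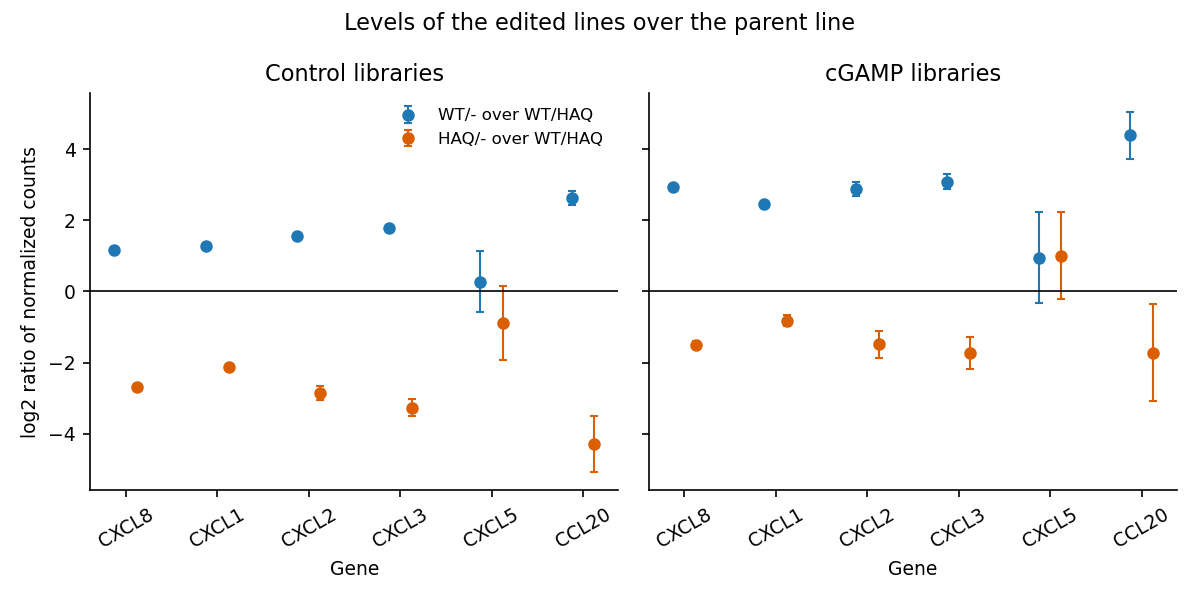
Log2 ratio of normalized counts of WT/- (blue) and of HAQ/- (orange) over the WT/HAQ parent for the 6 analysed genes, in the control libraries (left) and the cGAMP libraries (right), with 95% counting intervals. Apart from CXCL5, the blue points are above 0 and the orange points below 0 in both panels.

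The second comparison sets the cGAMP library against the control library within a line. Control handling is not described, so the ligand and the handling cannot be told apart in these folds. CXCL8, CXCL1, CXCL2 and CXCL3 were lower in the cGAMP library than in the control of the same line in all 3 lines, and by most in the parent cells. CCL20 in HAQ/-, and CXCL5 in WT/- and HAQ/-, were within counting error of no difference. In WT/HAQ all 6 analysed genes were at least 1.5-fold lower, against 12.3% of all analysed genes, and none was higher, against 12.9%. The log2 fold was -3.12 for CXCL8 (-3.18 to -3.06), -2.47 for CXCL1 (-2.57 to -2.37), -2.74 for CXCL2 (-2.93 to -2.55), -2.85 for CXCL3 (-3.07 to -2.63), -3.61 for CCL20 (-4.28 to -2.95) and -1.22 for CXCL5 (-2.37 to -0.07). On a linear scale CXCL8 was 8.72-fold lower, and it was the 25th lowest of the 15114 genes that had a fold in this line. It was 231st lowest of 15099 in WT/- and 47th of 15072 in HAQ/-.

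In WT/-, 5 of the 6 were at least 1.5-fold lower (8.79% of all analysed genes) and none was higher (11.9%). The log2 fold was -1.36 for CXCL8 (-1.39 to -1.33), -1.30 for CXCL1 (-1.36 to -1.25), -1.42 for CXCL2 (-1.51 to -1.33), -1.55 for CXCL3 (-1.64 to -1.45) and -1.85 for CCL20 (-2.03 to -1.67). CXCL5 was at -0.55 (-1.56 to 0.47), and at -0.61 with libraries scaled by their totals only, where all 6 passed 1.5-fold. In HAQ/-, 5 of the 6 were at least 1.5-fold lower (5.79%) and 1, CXCL5, was that much higher (6.77%). The log2 fold was -1.93 for CXCL8 (-2.05 to -1.82), -1.38 for CXCL2 (-1.75 to -1.01) and -1.30 for CXCL3 (-1.76 to -0.85). For CXCL1 it was -1.16, which is 2.23-fold lower (2.01 to 2.47). CCL20 was at -1.05 (-2.48 to 0.38) and CXCL5 at 0.68 (-0.44 to 1.79). With a floor of 10 counts in place of 3, CCL20 was at -0.05 in HAQ/- and 4 of the 6 genes were at least 1.5-fold lower there.

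The median log2 fold of the 6 genes was -2.79, -1.39 and -1.23 in WT/HAQ, WT/- and HAQ/-, respectively. The median over all analysed genes, which the scaling holds near 0, was -0.01, 0.00 and -0.01. These folds were part of the reason the genes were chosen, and nothing is read from the counts beyond this description.

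**Figure D4:**
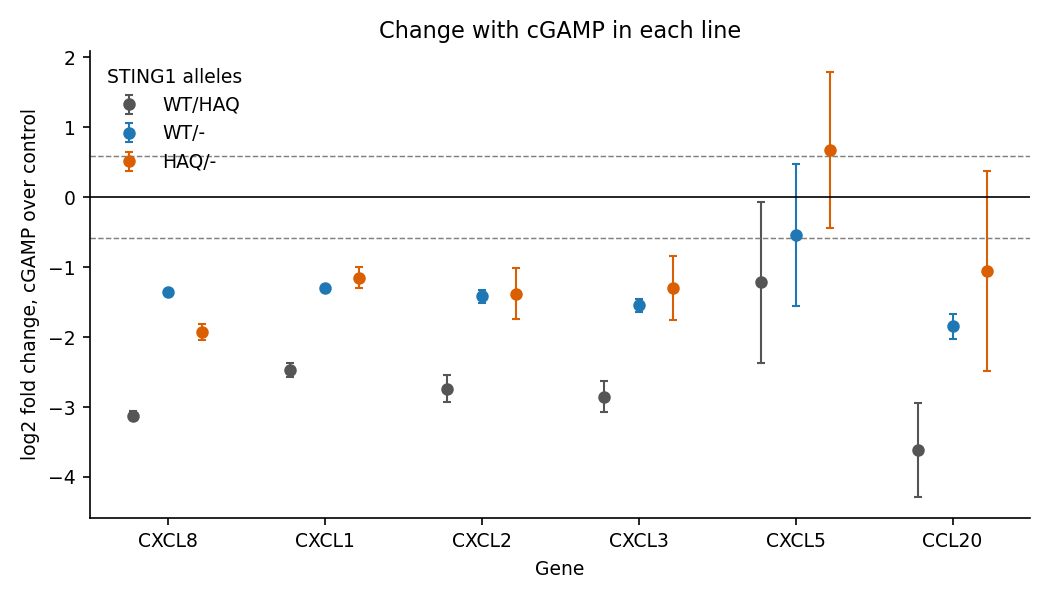
Log2 fold of cGAMP over control for the 6 analysed genes in WT/HAQ (grey), WT/- (blue) and HAQ/- (orange), with 95% counting intervals, 1 library per condition, and dashed lines at a 1.5-fold change. The grey points are the lowest for each gene, at -3.12 for CXCL8 and -3.61 for CCL20, and the interval of CXCL5 crosses 0 in WT/- and HAQ/-.

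Between lines, the log2 fold in WT/HAQ was below that in WT/- by more than counting error for 5 genes. The difference was -1.76 for CXCL8 (-1.83 to -1.70), -1.17 for CXCL1 (-1.28 to -1.05), -1.32 for CXCL2 (-1.53 to -1.11), -1.30 for CXCL3 (-1.54 to -1.07) and -1.76 for CCL20 (-2.46 to -1.07). Against HAQ/-, which shares the WT/HAQ libraries with that comparison, the difference of WT/HAQ was -1.19 for CXCL8 (-1.32 to -1.06), -1.31 for CXCL1 (-1.49 to -1.14), -1.36 for CXCL2 (-1.78 to -0.94), -1.55 for CXCL3 (-2.06 to -1.04) and -2.56 for CCL20 (-4.20 to -0.93). For these 5 genes the values of WT/- and HAQ/- were nearer to each other. CXCL8 was lowered more in HAQ/- than in WT/- by 0.57 on the log2 scale (0.45 to 0.69). The difference of WT/- minus HAQ/- was -0.15 for CXCL1 (-0.31 to 0.01), -0.04 for CXCL2 (-0.42 to 0.34), -0.24 for CXCL3 (-0.71 to 0.23) and -0.80 for CCL20 (-2.30 to 0.70), all with intervals that include 0. For CXCL5 the differences were -0.67 (-2.24 to 0.90) for WT/HAQ minus WT/-, -1.89 (-3.53 to -0.25) for WT/HAQ minus HAQ/- and -1.22 (-2.76 to 0.32) for WT/- minus HAQ/-. With 1 library per condition a difference of responses cannot be tested. The share of all analysed genes with such differences was not computed, so nothing is read from the number of genes past counting error.

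The proportions among the genes were not constant. Per kb of transcript, CXCL8 stood over CXCL1 by 2.82-fold in the WT/HAQ control and 1.79-fold after cGAMP, by 2.62-fold and 2.52-fold in WT/-, and by 1.91-fold and 1.12-fold in HAQ/-. CXCL8 was thus reduced more than CXCL1 in WT/HAQ and HAQ/-, beyond counting error, and the intervals of the WT/- pair (2.57 to 2.67 and 2.43 to 2.61) overlap. CXCL1 stood over CXCL3 by 3.62-fold and 4.72-fold in WT/HAQ, 2.55-fold and 3.02-fold in WT/-, and 7.94-fold and 8.81-fold in HAQ/-. In the line with the lowest levels, CXCL1 therefore took a greater part of the total relative to CXCL3. CXCL2 and CXCL3 stayed within 0.985-fold to 1.54-fold of each other per kb in the 6 libraries.

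The pathway around these chemokines was read with edgeR's quasi-likelihood test of treatment over the 3 lines, blocked by line and adjusted by Benjamini-Hochberg over 15126 genes. This test, which has 2 residual degrees of freedom and takes the 3 lines as the replicates, called 344 genes higher (2.27%) and 145 lower (0.959%) after cGAMP. The calls depend on which lines are included. Without the WT/- line the test called 0 genes, and unadjusted p was under 0.05 for 950 higher and 944 lower genes. Without HAQ/- it called 1282 and 1307, without WT/HAQ 136 and 50, and DESeq2 on all 6 libraries called 772 and 583. Over the 8 gene lists described next, 15 genes were called higher and 18 lower, against 26 and 44 without HAQ/- and 0 and 0 without WT/-. Each adjusted p below is from the edgeR test on all 6 libraries. The analysed chemokines were among the genes in that test, and CXCL8, CXCL1, CXCL2 and CXCL3 are among those called lower. They were chosen with their folds known, so nothing is read from their calls.

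Among the other chemokine ligands the changes were increases. Of 37 listed, 11 were analysed, 5 rose and 0 fell. CXCL10, a ligand of CXCR3 that attracts activated T cells, went from 7.96 to 1967 normalized counts in WT/HAQ, from 8.40 to 3549 in WT/- and from 3.49 to 9.85 in HAQ/- (adjusted p = 0.00917). CXCL11, which acts on the same receptor, had 3 and 1314 counts in WT/HAQ, 4 and 1513 in WT/-, and 2 and 10 in HAQ/- (adjusted p = 0.00448). CCL5, a chemokine for T cells and monocytes, went from 7.96 to 4384 normalized counts in WT/HAQ, from 14.0 to 4335 in WT/- and from 13.1 to 273 in HAQ/- (adjusted p = 0.0130). CX3CL1, the membrane-bound fractalkine, rose with log2 folds of 3.76, 4.03 and 3.76 in WT/HAQ, WT/- and HAQ/- (adjusted p = 0.00525). CCL4 had 1 and 15 counts in WT/HAQ, 1 and 84 in WT/-, and 0 in both HAQ/- libraries (adjusted p = 0.0444). Each of these 5 genes had 15 counts or fewer in every control library. CXCL14, CXCL16 and CCL28, the remaining ligands that the rule names, had adjusted p of 0.892, 0.433 and 0.444.

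Receptors were mostly not expressed by these cells. Of 9 receptors and decoy receptors listed, 2 were analysed and neither passed the test. CXCR1 was at 0 in every library and CXCR2 had 0 to 3 counts. ACKR3, a scavenging receptor, had an adjusted p of 0.644. CXCR4, the receptor of CXCL12, went from 13 to 56 counts in WT/HAQ, from 12 to 26 in WT/- and from 8 to 2 in HAQ/- (adjusted p = 0.286).

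Of 26 upstream ligands, receptors and adaptors of the IL-1, TNF and IL-17 pathways, 22 were analysed, 3 rose and 3 fell. The 3 that fell are ligands. IL1A was at 3735 normalized counts in the WT/HAQ control and 1227 after cGAMP, 14133 and 7616 in WT/-, and 401 and 185 in HAQ/- (adjusted p = 0.0268). IL1B was at 411 and 91.2 in WT/HAQ, 2101 and 689 in WT/-, and 40.1 and 17.5 in HAQ/- (adjusted p = 0.0138). TNF was at 661 and 178 in WT/HAQ, 4620 and 2010 in WT/-, and 154 and 70.1 in HAQ/- (adjusted p = 0.0229). For each of these ligands the WT/- control was the highest library and the HAQ/- cGAMP library the lowest. The genes that rose are receptors and an adaptor. IL1R1, the signaling receptor of IL-1, rose by log2 folds of 0.79, 1.01 and 0.77 in WT/HAQ, WT/- and HAQ/- (adjusted p = 0.0130). MYD88, the adaptor below IL-1 and Toll-like receptors, rose by 2.20, 1.75 and 1.27 (adjusted p = 0.0184), and TLR3, a sensor of double-stranded RNA, by 3.45, 2.71 and 2.19 (adjusted p = 0.0145). TRAF3IP2, the adaptor of the IL-17 receptor, had log2 folds of 1.66, 1.28 and 0.51 (adjusted p = 0.0633).

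Of 26 NF-κB subunits, kinases and feedback inhibitors, 25 were analysed, 0 rose and 2 fell. This count moved with the fit: DESeq2 called 2 higher and 9 lower, and edgeR without HAQ/- called 2 and 12, without WT/HAQ 1 and 1, and without WT/- 0 and 0. Of the 25, 13, 5 and 4 were at least 1.5-fold lower in the WT/HAQ, WT/- and HAQ/- lines, against 12.3%, 8.79% and 5.79% of all analysed genes. NFKB1, which encodes the p50 subunit, fell with log2 folds of -0.84, -0.46 and -0.51 in WT/HAQ, WT/- and HAQ/- (adjusted p = 0.0462). NFKBIE, an inhibitor that NF-κB itself induces, fell with -1.45, -1.01 and -0.77 (adjusted p = 0.0279). The list median was -0.60, -0.25 and -0.19 in the 3 lines. TNFAIP3 (A20), a feedback inhibitor, was at 10044 and 3675 normalized counts in WT/HAQ, 30554 and 22054 in WT/-, and 1207 and 477 in HAQ/- (adjusted p = 0.0633). NFKBID had log2 folds of -1.44, -1.53 and -0.09 (adjusted p = 0.0735). In the other direction lay NFKBIZ, which encodes a co-activator at a subset of NF-κB targets, with log2 folds of 1.39, 0.71 and 0.68 (adjusted p = 0.0516), and TNIP1, an A20 partner, with 0.68, 0.61 and 0.27 (adjusted p = 0.0633). TNIP2 had an adjusted p of 0.653.

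Other inflammatory targets of NF-κB split in direction. Of 27, 22 were analysed, 2 rose and 5 fell. CSF2 (GM-CSF) had 43 counts in the WT/HAQ control and 0 after cGAMP, 304 and 5 in WT/-, and 9 and 0 in HAQ/- (adjusted p = 0.00932). LIF, a cytokine of the IL-6 family, had log2 folds of -1.48, -0.70 and -0.87 in WT/HAQ, WT/- and HAQ/- (adjusted p = 0.0448), and IER3, a survival gene, -1.49, -1.28 and -0.76 (adjusted p = 0.0272). TNFAIP2 had -1.66, -1.01 and -0.78 (adjusted p = 0.0435), and the protease PLAU -0.97, -1.04 and -0.45 (adjusted p = 0.0458). PTGS2 (COX-2), the prostaglandin synthase, rose with 1.91, 3.65 and 2.44 (adjusted p = 0.0279), although its HAQ/- values rest on 3 and 13 counts. PLAUR, the receptor of PLAU, rose with 3.76, 3.71 and 1.84 (adjusted p = 0.0347). PLAU and its receptor thus moved in opposite directions. ICAM1, an adhesion molecule for leukocytes, had -2.40, -1.06 and -0.35 (adjusted p = 0.111), and SAA2, an acute-phase protein, had an adjusted p of 0.135.

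Of 14 factors that act on AU-rich messages, all were analysed, 3 rose and 1 fell. ZFP36L2, which promotes the decay of such messages, rose with log2 folds of 2.36, 2.30 and 1.01 in WT/HAQ, WT/- and HAQ/- (adjusted p = 0.0441), and its relative ZFP36L1 fell with -1.51, -0.93 and -0.70 (adjusted p = 0.0444). N4BP1, an endonuclease that restrains NF-κB signaling, rose with 1.45, 1.44 and 1.18 (adjusted p = 0.00584). ARID5A, which stabilises some inflammatory messages, rose with 1.89, 1.89 and 0.78 (adjusted p = 0.0444). ZC3H12A (Regnase-1) had -0.28, -0.49 and -0.16 (adjusted p = 0.111), and RC3H1 (Roquin-1) -0.44, -0.30 and -0.28 (adjusted p = 0.0740).

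Of 14 other factors known to act on promoters of this kind, all were analysed, 1 rose and 2 fell. DESeq2 called 1 higher and 5 lower, and edgeR 2 and 5 without HAQ/-, 0 and 0 without WT/HAQ, and 0 and 0 without WT/-. IRF1, which interferon and NF-κB induce, rose with log2 folds of 1.51, 0.72 and 1.72 in WT/HAQ, WT/- and HAQ/- (adjusted p = 0.0444). JUND, a subunit of AP-1, fell with -0.48, -0.43 and -0.41 (adjusted p = 0.0384), and IRF3, the factor that STING1 signaling activates, with -0.56, -0.56 and -0.34 (adjusted p = 0.0458). CEBPB, FOSL2, BATF3, ELF3 and EHF had adjusted p of 0.206, 0.0939, 0.273, 0.0794 and 0.0857.

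Of 19 immediate-early genes, which answer growth factors, fresh serum and handling within minutes to hours, all were analysed, 1 rose and 5 fell. The other 13 did not pass the test. DESeq2 called 1 higher and 9 lower, and edgeR 1 and 11 without HAQ/-, 0 and 6 without WT/HAQ, and 0 and 0 without WT/-. At least 1.5-fold lower were 12, 7 and 11 of the 19 in the WT/HAQ, WT/- and HAQ/- lines, against 12.3%, 8.79% and 5.79% of all analysed genes. Over all 19 the median log2 fold was -0.90, -0.28 and -0.86 in WT/HAQ, WT/- and HAQ/-, respectively. FOSB fell with -1.89, -1.34 and -1.69 (adjusted p = 0.00757), EGR2 with -1.97, -1.36 and -1.98 (adjusted p = 0.0104) and FOSL1 with -1.64, -1.45 and -0.94 (adjusted p = 0.0178). NR4A1 fell with -1.28, -1.11 and -0.84 (adjusted p = 0.0142) and CCN1, a target of YAP, with -1.52, -1.31 and -1.15 (adjusted p = 0.00707). KLF4 rose with 3.03, 3.41 and 1.73 (adjusted p = 0.0268), while JUNB, KLF6 and CCN2 had adjusted p of 0.242, 0.942 and 0.0598. Since the handling of the controls is not described, the ligand and the handling cannot be told apart in the chemokine folds. The summed normalized counts of the 9 epithelial markers were 112912 and 92846 without and with cGAMP in WT/HAQ, 88072 and 72640 in WT/-, and 91883 and 87400 in HAQ/-. Most of that sum was ERBB2, which SKOV3 cells are known to amplify, and single markers moved by more. PAX8 had 7638 and 2068 counts in WT/HAQ, 10063 and 3721 in WT/-, and 5288 and 2993 in HAQ/-. In the same lines KRT7 had 13198 and 6130, 8443 and 3723, and 4115 and 2547. KRT19 had 6369 counts in the WT/HAQ control against 390 and 474 in the WT/- and HAQ/- controls. The summed normalized counts of the 14 leukocyte markers, mostly CD68, were 433 and 710, 414 and 630, and 461 and 566. The part of the immediate-early genes and of these markers in the chemokine values was not tested. In such bulk RNA, fewer cells of a type and less RNA per cell cannot be told apart.

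The neighbours of the CXCL genes on chromosome 4 are given by their values. Within 500000 bp on either side of the CXCL genes, 8 other genes were analysed and none passed the treatment test, which over all analysed genes called 2.27% higher and 0.959% lower, so nothing is read from this count. ALB was at 427 and 473 normalized counts in WT/HAQ, 403 and 574 in WT/-, and 244 and 154 in HAQ/- (adjusted p = 0.941). RASSF6, just before CXCL8, was at 362 and 378, 367 and 479, and 185 and 142 (adjusted p = 0.882), and ANKRD17 at 2463 and 2121, 2685 and 2176, and 2405 and 2344 (adjusted p = 0.228). None of these had the steep order of the chemokines across lines. PF4V1 and AFP had 2 to 15 and 11 to 28 counts. MTHFD2L, which begins behind CXCL2, had log2 folds of -0.78, -0.11 and -0.30 in the order WT/HAQ, WT/-, HAQ/- (adjusted p = 0.176). Beyond it, the growth factor genes EREG and AREG were highest in WT/HAQ. EREG was at 482 and 372 normalized counts in WT/HAQ, 80.3 and 52.1 in WT/-, and 75.0 and 50.4 in HAQ/- (adjusted p = 0.0888). AREG was at 293 and 115, 90.5 and 37.4, and 64.6 and 44.9 (adjusted p = 0.0662), lower with cGAMP in each line but without a higher level in WT/-. Inside the cluster, the platelet chemokine PF4 had 0 counts in every library, and PPBP had 0 to 2 counts in WT/HAQ and WT/- and 23 and 24 in HAQ/-.

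Among the 12082 genes outside the 7 that averaged 50 counts or more, the profile most like the mean of the 6 chemokines over the 6 libraries was that of SLC2A6, with a root mean square difference of 0.218 on the log2 scale. SLC2A6 encodes a glucose transporter family member and was at 356 and 85.5 normalized counts in WT/HAQ, 1042 and 370 in WT/-, and 64.6 and 30.6 in HAQ/-. It was followed by C1QTNF1 (0.388), SERPINA3 (0.442), NFKBID (0.454), CD83 (0.461), ELF3 (0.487), ICAM1 (0.490) and PPP4R4 (0.499). Among the chemokines themselves the difference from their own mean was 0.203 for CXCL2, 0.272 for CXCL1, 0.310 for CXCL8, 0.412 for CXCL3, 1.08 for CCL20 and 1.56 for CXCL5. SLC2A6 was therefore nearer to the mean than CXCL1, CXCL8 and CXCL3 were, although those genes enter that mean. Chosen by Pearson's correlation over the same libraries in place of distance, the leading 8 genes shared 2 with this list, SLC2A6 and C1QTNF1.

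**Figure D5:**
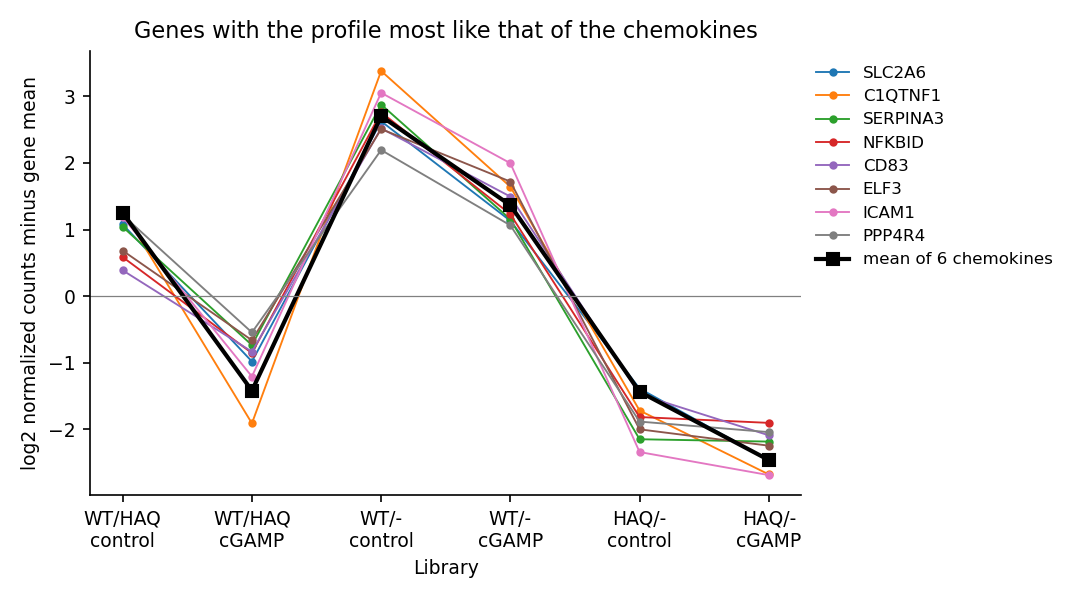
Log2 normalized counts in the 6 libraries, each centred on the gene's own mean, for the mean of the 6 chemokines (black) and the 8 genes whose profile is nearest to it (colours, root mean square difference 0.218 to 0.499). All have their highest value in the WT/- control and low values in both HAQ/- libraries.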

How the data were processed

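RNA-seq was measured in 6 libraries, 1 per line and treatment. Libraries were made with Illumina mRNA TruSeq kits and sequenced as paired ends on a NovaSeq. The authors deposited expected counts (estimated counts per Ensembl gene, not normalized), and the submitters' processing notes name STAR, RSEM and GRCh38 (hg38) without versions. The annotation release is not given in the sources used here. A total of 0 columns were left without a sample.

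Expected counts were rounded to whole counts. The 15126 genes with a mean of at least 10 counts were scaled by edgeR 4.0.16 (TMM factors 0.940 to 1.052), and normalized counts refer to a library of the geometric mean effective size. For folds, 3 counts served as the floor, and genes at or below it in both libraries were left without one. Depth was 12444791 to 17608427 counts, and the 95% intervals cover counting error only. Levels between genes were compared per kb of the main transcript (GENCODE release 44, which holds 14995 of the analysed identifiers). Treatment was tested in R 4.3.3 by the quasi-likelihood F test of edgeR, blocked by line, at a Benjamini-Hochberg adjusted p threshold of 0.05. DESeq2 1.42.0, other scalings, floors, filters and folds, leaving out the block and leaving out each line were alternatives. Python 3.11.15, pandas 2.3.3, scipy 1.17.1 and Biopython 1.88 were used for the rest. The steps were tested on simulated data.

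The genes and lists were chosen with earlier results of these data known. Of each list the text names the genes past the test and the 3 analysed genes with the largest mean log2 fold in each direction. The cluster neighbours and the 8 nearest profiles were also set by rule. Protein sequences were not used here.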

Additional observations from a re-analysis of the deposited data

Results flagged for a closer look

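CXCL5 had another sign in 1 line. Its log2 fold with cGAMP was -1.22 in WT/HAQ and -0.55 in WT/-, and 0.68 in HAQ/-, where the other analysed members with a fold were lower. The difference was not tested, since each line has 1 library per treatment. The 6 values rest on 8 to 23 counts, and the intervals in WT/- (-1.56 to 0.47) and in HAQ/- (-0.44 to 1.79) each include 0. The difference was -1.89 (-3.53 to -0.25) for WT/HAQ minus HAQ/- and -1.22 (-2.76 to 0.32) for WT/- minus HAQ/-, with intervals for counting error only.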

How the results depend on the processing

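Of 264 repeats of the 36 chemokine ratios under other scalings, thinning, floors, filters and the sum of CXCL1, CXCL2 and CXCL3, 0 reversed, 245 stayed within the counting interval and 19 moved beyond it. With a floor of 10 counts 4 of the 6 genes were lower in HAQ/-, where CCL20 (13 and 5 counts) no longer passed the fold of 1.5. With total counts only 6 of 6 were lower in WT/- (CXCL5 at -0.61), as at a fold of 1.2, and the median log2 fold there was -1.45. Counts over all genes followed the cutoffs. At a fold of 2, 810 genes were lower and 1115 higher in WT/HAQ, 525 and 994 in WT/-, and 293 and 469 in HAQ/-. At a fold of 1.2 they were 4025 and 3652, 3395 and 3475, and 2603 and 2331. With a mean count of at least 50 they were 1116 and 1202, 720 and 1046, and 331 and 431. With a mean count of at least 1, 3028 were higher in WT/HAQ, 2866 in WT/-, and 1621 lower and 1923 higher in HAQ/-.

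The treatment test called 772 genes higher and 583 lower with DESeq2, 583 and 431 with a mean count of at least 1, and 58 and 4 without line as a block. Over the fixed lists it called 15 higher and 18 lower, against 34 lower with DESeq2, and 1 and 0 without the block. Leaving out 1 line gave 0 to 1282 higher and 0 to 1307 lower over all genes, and 0 to 26 and 0 to 44 over the lists, with the lowest values without WT/- and the highest without HAQ/-. The cause was not tested. The block pairs the control and the cGAMP library of each line, and the labels give no replicate numbers beyond that. Depth limits CXCL5, CXCL6 and, in HAQ/-, CCL20.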
